A study of Rattus norvegicus with 23 samples.

Results

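The genes described here are those of the rat major histocompatibility complex, which carry symbols starting with RT1-, together with 10 genes that control or serve it: Cd74, Ciita, Nlrc5, B2m, Tap1, Tap2, Tapbp, Psmb8, Psmb9 and Psmb10. They were chosen by symbol, with earlier results of these data known, and 41 of the 28913 rows of the count table matched. Of these, 39 had at least 10 counts in total over the 23 libraries: 21 class I genes, 8 class II genes and the 10 others. RT1-DMa and RT1-DMb, the pair of chains that edit class II peptides, fell short with 6 and 2 counts. A further 3 members, RT1-Ha, RT1-M4 and RT1-M5, had 77, 121 and 145 counts and did not pass the filter on low counts, so 36 members were tested among 15079 genes.

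The series deals with portosinusoidal vascular disease, in which small hepatic vessels are damaged, and RNA was sequenced from livers of Sprague Dawley rats. The 6 Control libraries came from untreated rats. The 7 LPS libraries came from rats with a surgically placed portal catheter, through which lipopolysaccharide, a bacterial cell wall component, was given at 1 mg/kg 2 times per week for 8 weeks. For the 10 Selfox libraries, rats ate selenium-enriched food over 8 weeks, during which a chemotherapy mixture was injected into a vein weekly, 8 times in all, with 3 mg/kg of oxaliplatin, 25 mg/kg of 5-FU (5-fluorouracil) and 45 mg/kg of folinic acid. The Control rats had neither surgery nor vehicle injections by the labels, so the effect of LPS cannot be told apart from that of the catheter, nor that of the diet from that of the drugs. The labels give no sex, age, batch or date, and do not say whether each library came from a different rat, so p-values measure the spread between these libraries. Total counts were 31.9 to 53.8 M (mega) in Control, 70.4 to 79.2 M in LPS and 65.1 to 74.8 M in Selfox.

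Class I molecules consist of a heavy chain and the light chain encoded by B2m, and they show peptides from inside the cell to CD8+ T cells and natural killer cells. Those peptides are cut by the proteasome, whose interferon-induced subunits are encoded by Psmb8, Psmb9 and Psmb10, are pumped into the endoplasmic reticulum by the products of Tap1 and Tap2, and are loaded with the help of tapasin, the product of Tapbp. Class II molecules are pairs of an alpha and a beta chain made mainly by macrophages, dendritic cells and B cells; Cd74, the invariant chain, fills their groove until proteases cut it away. Ciita and Nlrc5 encode the transactivators of class II and class I genes. In the liver, Kupffer cells, the resident macrophages, are among the cells known to carry class II.

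Class II transcripts set the LPS and Selfox livers apart, while the class I light chain and 5 of the 6 members that supply its peptides passed in no comparison. Gene by gene, 7 of the 36 members tested passed the threshold (adjusted p below 0.05, edgeR's quasi-likelihood test with Benjamini-Hochberg adjustment over all genes) in LPS with Control, or 19.4% of them, where 14.7% of all genes tested passed. Of these, 3 were higher and 4 lower, against 7.71% and 6.99% of all genes. In Selfox with Control 8 members passed, 1 higher and 7 lower, or 22.2%; the shares of all genes were 29.1% in either direction, 14.2% higher and 14.9% lower. In Selfox with LPS 8 members passed, 2 higher and 6 lower, where 14.5% of all genes passed, 6.86% higher and 7.64% lower. The first count was 4 without any 1 of Control 40, 41, 46, 49 or 52 and 3 without LPS 4, and the second was 5 without Control 41 or 49 and 3 without Control 52. The 6 members lower in Selfox than in LPS were all class II chains or the invariant chain. LPS and Selfox were set against the same Control libraries, so the comparisons with Control are not independent of each other. A count per gene in whole liver cannot tell fewer cells of a type from less RNA per cell.

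**Figure D1:**
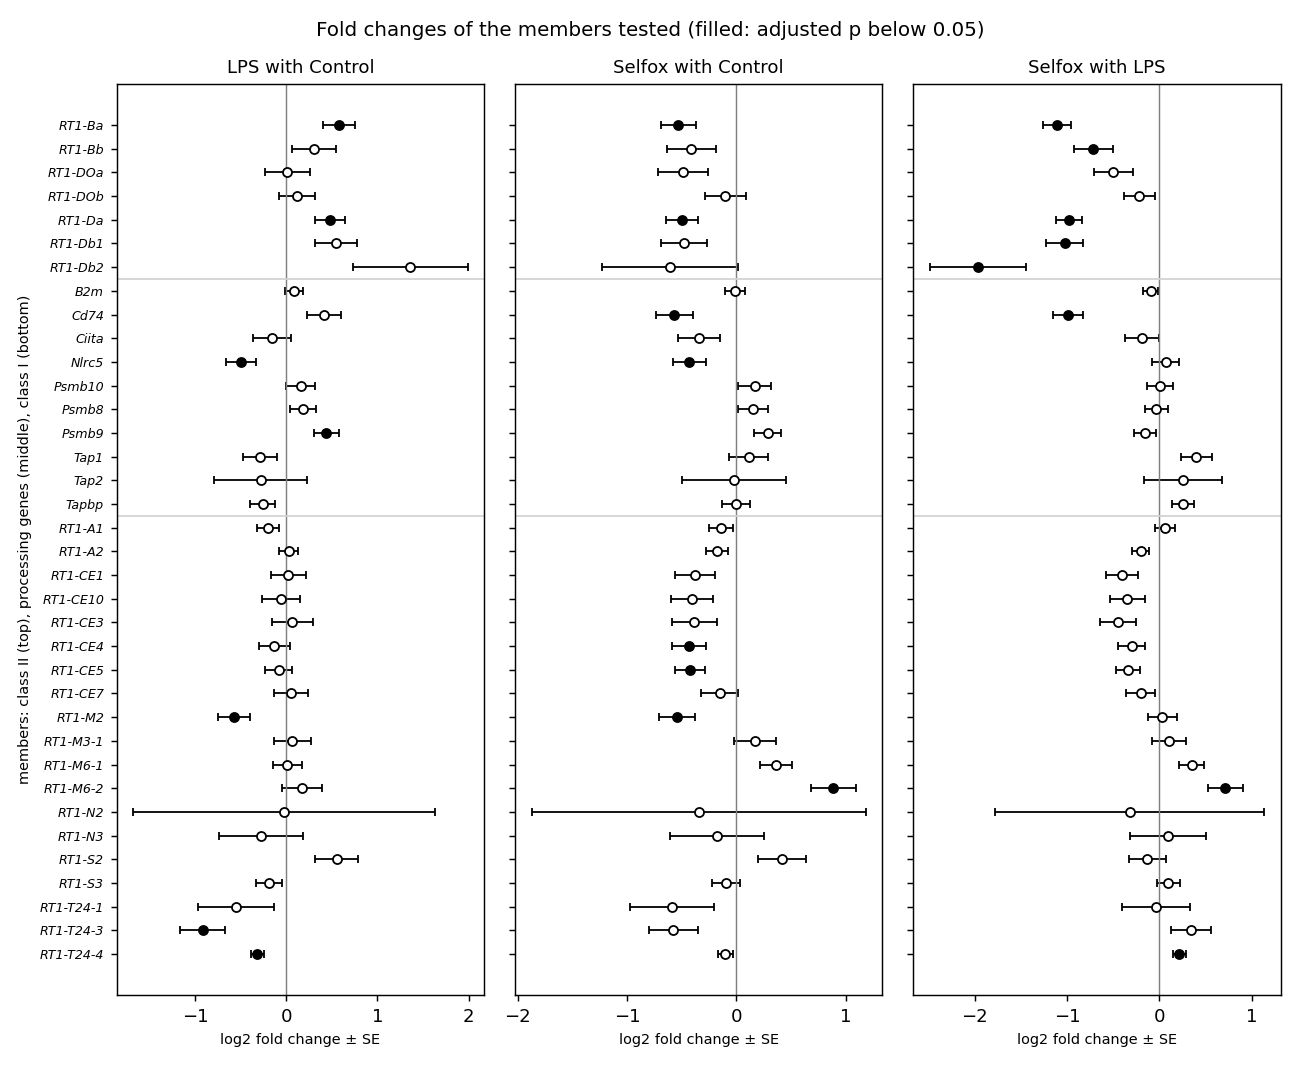
Log2 fold changes (points) with standard errors (bars) of the 36 members tested, in 1 panel per comparison, with class II genes at the top, the control and processing genes in the middle and class I genes at the bottom; filled points had an adjusted p below 0.05. All 7 class II chains lie left of 0 in Selfox with Control and Selfox with LPS, and the bars of RT1-N2 are far wider than those of any other member.

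Some RT1 genes stood at separate levels among libraries of the same group, a split that did not follow the treatments. RT1-N2, a class I gene, ranged from 24.8 to 56.8 counts per M (CPM, scaled by TMM factors) in 10 libraries (Control 40, 41, 49 and 52, LPS 1, 2 and 3, Selfox 6, 8 and 10) and from 0 to 1.26 CPM in the other 13. RT1-N3 and RT1-T24-1, also class I genes, were at 8.26 CPM or more and 1.88 CPM or more in those 10 libraries and at most 5.42 and 1.29 CPM in the rest. RT1-Db2, a class II beta chain gene, was at 0.755 to 1.19 CPM in LPS 1, 2 and 3 and Control 41 and at most 0.262 CPM in every other library. RT1-CE4 and RT1-CE10 followed part of the same split: in LPS 1, 2 and 3 RT1-CE4 was at 124 CPM or more, and in LPS 4 to 7 at 95.3 CPM or less. In Selfox 6, 8 and 10, where RT1-N2 was high, RT1-CE4 was at 97.8, 101 and 84.9 CPM, and the other Selfox libraries reached 100 CPM. Class II genes and Cd74 were also read by RT1-N2 level, on few libraries per level. In Control, RT1-Ba was at 56.7 CPM or more in the 4 libraries with high RT1-N2 and at most 50.4 CPM in the others. RT1-Da, RT1-Db1 and Cd74 were also higher there without overlap, by small margins, while RT1-Bb overlapped. The lowest values with high RT1-N2 were 76.1, 49.98 and 114.6 CPM, and the highest in the other Control libraries 71.3, 49.27 and 112.6 CPM. In LPS the order was reversed for RT1-Bb, at most 43.03 CPM in LPS 1, 2 and 3 and at least 52.2 CPM in LPS 4 to 7. It was also reversed for RT1-Db1, while RT1-Ba, RT1-Da and Cd74 overlapped. In Selfox all of these overlapped. The share of all genes that separate by RT1-N2 level in this way was not computed, so no difference by that level is read from these class II and Cd74 values. RT1-N2, RT1-N3, RT1-T24-1 and RT1-CE10 were picked for this description after their values were seen. Sprague Dawley is an outbred stock and rat strains are known to differ in which RT1 genes they carry; the part of inherited differences, or of reads shared between near-identical RT1 copies, was not tested. With a term for the RT1-N2 level in the model, 5 members passed in LPS with Control, losing RT1-Da and Nlrc5, and 5 passed when Selfox was set against Control, losing RT1-CE4, RT1-CE5 and Nlrc5. Between Selfox and LPS the same 8 passed.

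**Figure D2:**
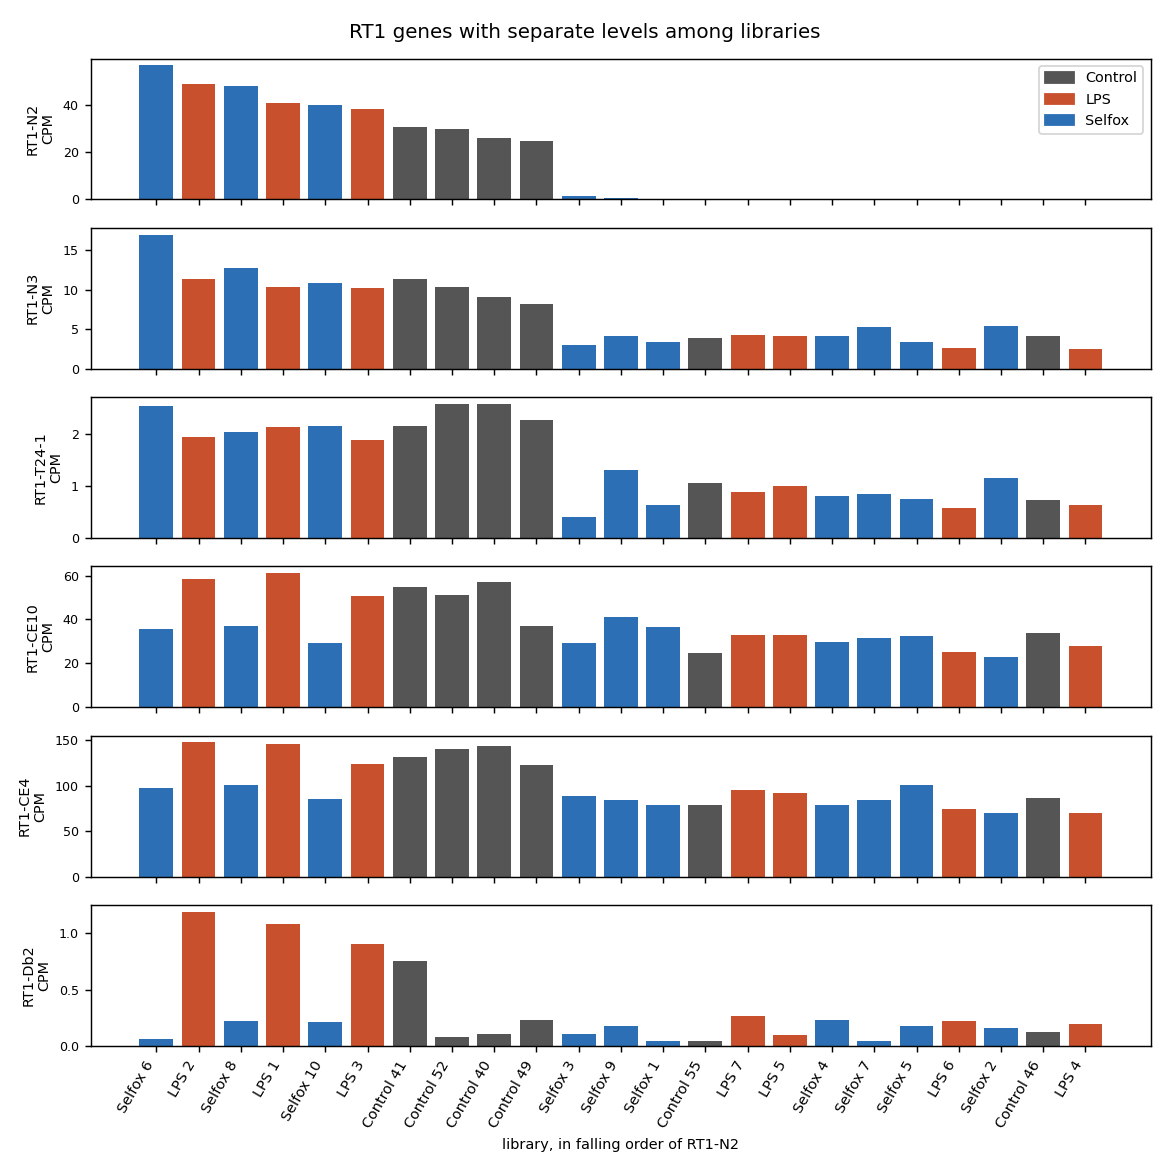
CPM of 6 RT1 genes (1 panel each, bars from 0) in the 23 libraries, ordered by falling RT1-N2 and coloured by group. The first 10 libraries hold all RT1-N2 values of 24.8 CPM or more and come from all 3 groups, while RT1-CE10, RT1-CE4 and RT1-Db2 keep only part of that order.

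The class II genes share a promoter layout that is known from many mammals: an X1 box bound by the RFX complex, an X2 box bound by CREB family factors and a Y box bound by NF-Y, onto which Ciita docks. RefSeq promoter windows (GRCr8 build, 250 bases before to 50 after the annotated start) existed for 35 of the 41 rows, and each was searched on both strands. The stretches from 140 to 31 bases before the start are shown for the 4 class II chains with the most reads, because the class II results turn on these 4; capitals mark every match to the searched motifs, and ATTGG is the Y box CCAAT read on the other strand. They lie on chromosome 20, at chr20:4576917-4577026 (+ strand, RT1-Ba), chr20:4604149-4604258 (- strand, RT1-Bb), chr20:4515275-4515384 (+ strand, RT1-Da) and chr20:4560193-4560302 (- strand, RT1-Db1).
RT1-Ba: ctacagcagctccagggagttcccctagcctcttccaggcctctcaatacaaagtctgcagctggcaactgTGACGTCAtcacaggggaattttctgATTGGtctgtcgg
RT1-Bb: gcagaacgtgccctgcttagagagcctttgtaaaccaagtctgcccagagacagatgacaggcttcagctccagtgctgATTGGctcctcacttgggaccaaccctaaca
RT1-Da: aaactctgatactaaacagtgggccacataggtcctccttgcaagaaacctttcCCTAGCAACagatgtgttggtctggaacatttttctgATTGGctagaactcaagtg
RT1-Db1: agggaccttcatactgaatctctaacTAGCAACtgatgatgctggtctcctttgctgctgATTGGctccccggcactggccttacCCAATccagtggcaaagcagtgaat

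All 4 stretches held a Y box read on the other strand, starting at -43 in RT1-Ba, -61 in RT1-Bb, -49 in RT1-Da and -80 in RT1-Db1, where -1 is the base before the start. CCAAT is common: 37.5% of all 33469 windows held it on either strand. The X1 core CCTAGNAAC was in 1.54% of all windows, and among the members in those of Cd74, RT1-Da and RT1-DOb. In RT1-Da it started at -86 and in RT1-DOb at -117. The shorter core TAGCAAC, which overlaps the longer one in RT1-Da and RT1-DOb, was in 3.58% of windows. Among the members it was in those of 5: Cd74, RT1-Da, RT1-Db1, RT1-DOb and Tap2. It started at -114 in RT1-Db1, at -72 in Cd74 and at -162 in Tap2. The X2 core TGACGTCA was in 1.83% of windows, and RT1-Ba, at -69, was the only member with it; the variant TGATGTCA was in 4.34% of windows and, among the members, in that of RT1-DMa. The interferon-stimulated response element was in 3.92% of windows and in those of 9 members: B2m, Psmb8, Psmb10, Tap1, Tap2, Tapbp, RT1-N3, RT1-S2 and RT1-S3. The gamma-activated site TTCNNNGAA was in 8.87% of windows and in those of Psmb8 and RT1-M3-1. Tap1 and Psmb9 face away from each other, and their windows overlap by 44 bases. These are matches of letters and were not tested as binding sites.

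The 4 abundant class II chains were highest in LPS and lowest in Selfox. RT1-Ba, the alpha chain of the RT1-B pair, was at 46.02, 57.4 and 71.3 CPM (lowest, median and highest) in Control, at 69.4, 79.2 and 121 CPM in LPS and at 20.1, 42.5 and 51.2 CPM in Selfox. In LPS, 6 of 7 libraries lay above every Control library, in Selfox 6 of 10 lay below every Control library, and LPS and Selfox did not overlap. Its log2 fold change against Control was 0.58 ± 0.18 (SE) in LPS (adjusted p = 0.0323) and -0.53 ± 0.16 in Selfox (adjusted p = 0.0170), and it was -1.11 ± 0.16 in Selfox with LPS (adjusted p = 5.97e-05), by edgeR's quasi-likelihood test.

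RT1-Da, the alpha chain of the RT1-D pair, followed the same order. It was at 60.8, 78.0 and 93.6 CPM in Control, at 90.2, 95.8 and 147 CPM in LPS and at 29.9, 56.6 and 67.9 CPM in Selfox. Again 6 of 7 LPS libraries were above every Control library and 6 of 10 Selfox libraries below, with no overlap between LPS and Selfox. Against Control the log2 fold change was 0.48 ± 0.16 in LPS (edgeR adjusted p = 0.0451) and -0.50 ± 0.15 in Selfox (adjusted p = 0.0121), and Selfox with LPS gave -0.98 ± 0.14 (adjusted p = 6.05e-05).

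The beta chains had a wider spread and passed only between the treated groups. RT1-Db1, a beta chain of the RT1-D pair, was at 45.8, 55 and 82.4 CPM in Control, at 57.5, 76.1 and 140 CPM in LPS and at 21.2, 46.3 and 58.9 CPM in Selfox. It was lower in Selfox than in LPS by a log2 fold change of -1.02 ± 0.20 (edgeR adjusted p = 0.00140), and 9 of 10 Selfox libraries were below every LPS library. Against Control it missed the threshold in both models: 0.55 ± 0.23 (adjusted p = 0.114) in LPS and -0.48 ± 0.21 (adjusted p = 0.0885) in Selfox. RT1-Bb, the beta chain of the RT1-B pair, was at 36.2, 49.5 and 62.3 CPM in Control, at 38.4, 52.2 and 100 CPM in LPS and at 19.5, 39.2 and 48.4 CPM in Selfox. The groups overlapped, and only Selfox with LPS passed (-0.72 ± 0.21, edgeR adjusted p = 0.0242; 4 of 10 Selfox libraries below every LPS library).

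Beside the values by RT1-N2 level given above, single libraries within the groups moved in all 4 chains at once. LPS 4 and LPS 7 had the highest values of each (RT1-Bb 94.8 and 100 CPM, the other LPS libraries at most 59.5 CPM), and Selfox 6 had the lowest of each. Summed over the 8 class II members, LPS 4 and LPS 7 reached 490 and 507 CPM, the other 5 LPS libraries 270 to 303 CPM, Control 192 to 308 CPM, and Selfox 91.7 to 228 CPM. The mean sums were 250 ± 46.9 (SD, n = 6), 349 ± 102 (n = 7) and 179 ± 42.0 CPM (n = 10) in Control, LPS and Selfox. Without LPS 4, RT1-Ba and RT1-Da had log2 fold changes of 0.50 (edgeR adjusted p = 0.0666) and 0.39 (0.10) in LPS with Control, and without LPS 7 of 0.48 (0.0765) and 0.40 (0.103). The call of RT1-Ba was also lost without any 1 of Control 40, 41, 46 or 55 (adjusted p 0.0527 to 0.0728), and that of RT1-Da without any 1 of Control 40, 41, 46, 52 or 55 (adjusted p 0.0595 to 0.0925). Without the 5 libraries in which the clock gene Dbp exceeded Arntl (Control 55, LPS 5, 6 and 7 and Selfox 8), RT1-Ba and RT1-Da had log2 fold changes of 0.51 (adjusted p = 0.114) and 0.41 (adjusted p = 0.152) in LPS with Control; the labels give no hour of collection. In Selfox with Control, RT1-Da kept its call whichever library was left out, and RT1-Ba lost it without Control 52 (-0.46, adjusted p = 0.0581). In Selfox with LPS, RT1-Ba, RT1-Da and RT1-Db1 kept theirs with each library left out in turn, and RT1-Bb lost it without LPS 4 (-0.58, adjusted p = 0.0712) or LPS 7 (-0.55, adjusted p = 0.0813). The call of RT1-Bb was also lost with limma voom (-0.58, adjusted p = 0.0706) and without the 5 libraries with Dbp above Arntl (-0.57, adjusted p = 0.168).

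**Figure D3:**
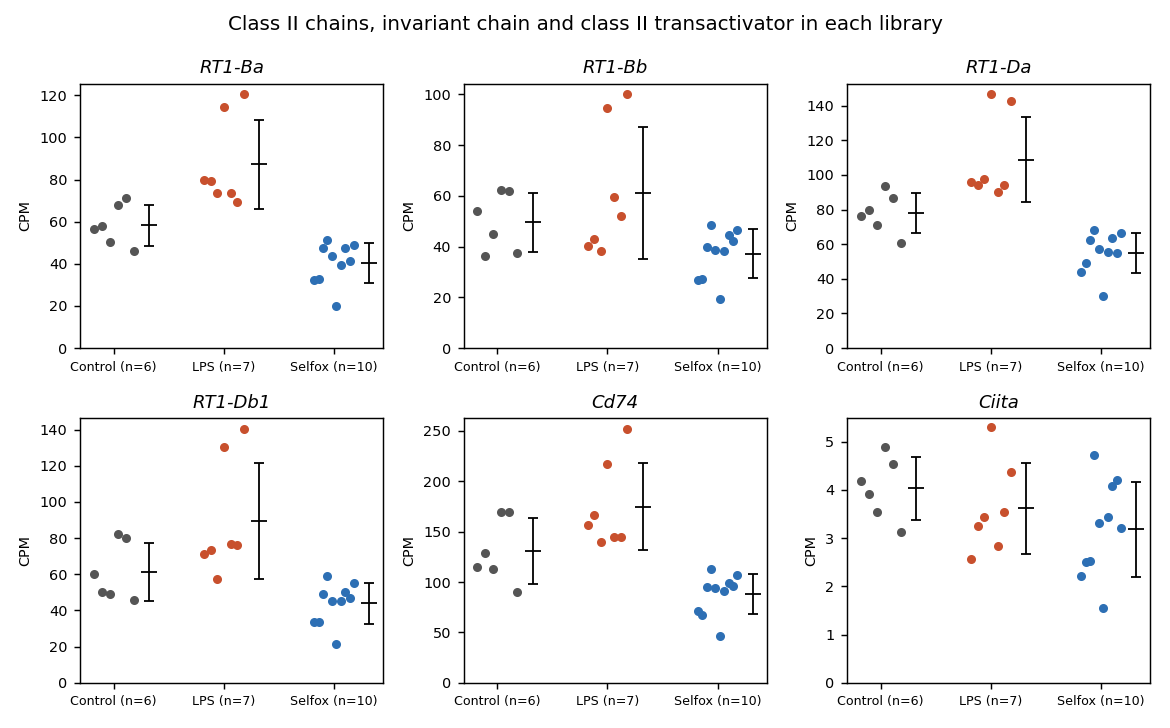
CPM of 4 class II chains, the invariant chain gene Cd74 and the class II transactivator gene Ciita, 1 point per library, with the mean and SD of each group beside the points. RT1-Ba and RT1-Da do not overlap between LPS (69.4 CPM or more and 90.2 CPM or more) and Selfox (at most 51.2 and 67.9 CPM), while the 3 groups overlap in Ciita.

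The invariant chain moved with the class II chains. Cd74 was at 90.0, 122 and 170 CPM in Control, at 139, 157 and 252 CPM in LPS and at 46.9, 94.3 and 113 CPM in Selfox. Every Selfox library was below every LPS library, while Control overlapped both. It was lower in Selfox than in LPS (-0.99 ± 0.16, edgeR adjusted p = 0.000342) and than in Control (-0.57 ± 0.17, adjusted p = 0.0148), and missed the threshold in LPS with Control (0.42 ± 0.19, adjusted p = 0.138). Without Control 49 or Control 52 the call in Selfox with Control was lost (adjusted p 0.0512 and 0.0575).

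Ciita itself, the transactivator of these genes, passed in no comparison. It was at 3.13, 4.06 and 4.90 CPM in Control, at 2.57, 3.45 and 5.30 CPM in LPS and at 1.54, 3.27 and 4.72 CPM in Selfox. The log2 fold change against Control was -0.16 ± 0.21 in LPS (95% interval -0.57 to 0.25, edgeR adjusted p = 0.662) and -0.34 ± 0.19 in Selfox (-0.72 to 0.03, adjusted p = 0.187). Selfox with LPS gave -0.19 ± 0.18 (-0.54 to 0.17, edgeR adjusted p = 0.548). It was highest in LPS 4 and lowest in Selfox 6.

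The other class II members had few counts. RT1-DOa and RT1-DOb, the chains of the molecule that restrains RT1-DM, had medians of 0.834 and 1.24 CPM in Control, 0.881 and 1.15 CPM in LPS and 0.628 and 1.08 CPM in Selfox, and passed in no comparison. RT1-DOa gave -0.49 ± 0.23 in Selfox with Control (edgeR adjusted p = 0.116) and -0.50 ± 0.21 in Selfox with LPS (adjusted p = 0.124). RT1-Db2 was lower in Selfox than in LPS (-1.97 ± 0.52, edgeR adjusted p = 0.0127), on 3 to 17 counts per Selfox library and 7 to 92 per LPS library, and only 3 of 10 Selfox libraries lay below every LPS library. That difference rests on LPS 1, 2 and 3, which were among the 4 libraries at the higher RT1-Db2 level. With a replicate block on the 14 LPS and Selfox libraries numbered 1 to 7 it did not pass (-1.99, adjusted p = 0.0815). Without Control 41, the remaining library at that level, RT1-Db2 passed in LPS with Control (2.27, adjusted p = 0.0263). RT1-Ha had 0 to 16 counts per library. Of the 7 class II chains tested, 2 were higher in LPS than in Control, 2 were lower in Selfox than in Control and 5 were lower in Selfox than in LPS. These were 28.6%, 28.6% and 71.4% of the 7, where 7.71%, 14.9% and 7.64% of all genes passed in the same direction. The median log2 fold changes of the 7 chains were 0.48, -0.49 and -0.98 in these comparisons, where the medians over all genes tested were 0.0058, 0.011 and 0.0016.

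Markers of the cells that usually carry class II were lower in Selfox too. All 11 Kupffer cell and macrophage markers tested (C1qa, C1qb, C1qc, Cd163, Cd5l, Cd68, Clec4f, Csf1r, Marco, Vsig4 and Adgre1) fell in Selfox with Control, and their summed level was 285 to 445 CPM in Selfox, 788 to 1071 CPM in Control and 681 to 1051 CPM in LPS. Of 9 dendritic cell markers, 5 fell in Selfox with Control, with summed levels of 11.7 to 19.2 CPM in Selfox, 20.1 to 24.1 CPM in Control and 17.1 to 22.4 CPM in LPS. All 6 B cell markers tested fell in Selfox with Control, with summed levels of 5.21 to 9.55 CPM in Selfox, 10.4 to 12.4 CPM in Control and 8.18 to 12.3 CPM in LPS. No marker of these lists was at 0 in every library of a group. Against LPS, Selfox had 11 of 11, 4 of 9 and 3 of 6 of these markers lower. The share of all genes that passed as lower in Selfox was 14.9% against Control and 7.64% against LPS. The part of these cells in the lower class II levels of Selfox was not tested.

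In LPS, where 2 of the 7 class II chains tested passed as higher than in Control, the summed macrophage markers lay within the Control range in 5 of 7 libraries and below it in the other 2. Of the 11 macrophage markers 1 passed in LPS with Control: Adgre1, which encodes the surface protein F4/80, rose by 0.68 ± 0.18 (edgeR adjusted p = 0.0132), and no dendritic or B cell marker passed. LPS 4, with 490 CPM of class II, had 823 CPM of macrophage markers, near the lower end of the Control range, and LPS 7, with 507 CPM of class II, had 1051 CPM of them. Of 4 cholangiocyte markers 2 rose in LPS with Control (Epcam and Krt7), where 7.71% of all genes rose. The summed level of the 4 was 10.96 to 16.2 CPM in LPS, 5.82 to 10.7 CPM in Control and 11.9 to 18.1 CPM in Selfox. In Selfox with Control the median log2 fold change was -1.21 over the 11 macrophage markers and -0.49 over the class II chains. Marco, a scavenger receptor of Kupffer cells, was at -2.94 ± 0.14, well beyond the median of the markers. The difference between these medians was not tested, nor was the part of any of these cells in the class II levels.

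**Figure D4:**
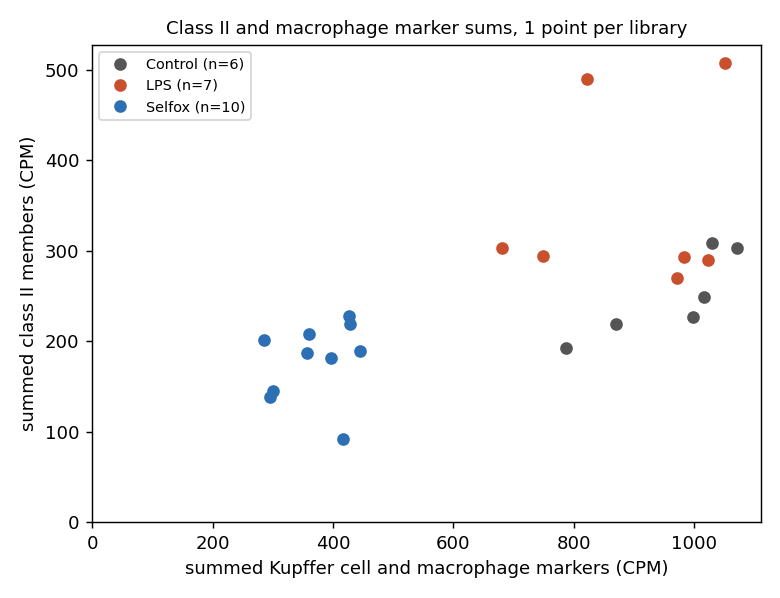
Summed CPM of the 8 class II members (vertical axis) against summed CPM of the Kupffer cell and macrophage markers (horizontal axis), 1 point per library, coloured by group. Selfox libraries lie at the lower left, at most 445 CPM of macrophage markers, and LPS 4 and LPS 7 stand apart at the top with 490 and 507 CPM of class II.

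The genes that process antigen for class II were tested as a list of 18. In Selfox with Control 8 were lower and 3 higher, in Selfox with LPS 6 lower and 1 higher, and in LPS with Control 2 higher and none lower. Among all genes, 14.9% were lower and 14.2% higher in Selfox with Control, and 7.64% lower and 6.86% higher in Selfox with LPS. In LPS with Control 7.71% of all genes were higher and 6.99% lower. The median log2 fold changes of the list were -0.11, -0.16 and -0.048 in these comparisons. Ctss, which encodes cathepsin S, the protease that makes the last cut in the invariant chain, was at 52.9, 65.9 and 76.7 CPM in Control, at 42.3, 63.9 and 83.3 CPM in LPS and at 20.4, 26.0 and 32.4 CPM in Selfox. Selfox overlapped neither of the other groups, and Ctss was lower there than in Control (-1.36 ± 0.12, edgeR adjusted p = 1.24e-07) and than in LPS (-1.29 ± 0.12, adjusted p = 1.49e-07). Lgmn, the endosomal asparagine protease, and Ctsl, cathepsin L, were also lower in Selfox than in Control, with log2 fold changes of -0.53 ± 0.09 and -0.64 ± 0.12 (edgeR adjusted p = 0.000192 and 0.000515). Ifi30, the lysosomal thiol reductase that opens disulfide bonds of antigens, was lower by a smaller step (-0.25 ± 0.08, adjusted p = 0.0166). The 2 genes that rose in LPS with Control were the membrane protein genes Cd82 (0.36 ± 0.10, edgeR adjusted p = 0.0189) and Lamp1 (0.32 ± 0.06, adjusted p = 0.00109). Macrophages make many of these proteases; their markers fell in Selfox as given above, and their part in these falls was not tested.

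On the class I side, summed levels overlapped among the groups. Over the 21 class I members the sum was 1166 ± 138 CPM (SD, n = 6) in Control, 1069 ± 159 CPM (n = 7) in LPS and 1014 ± 144 CPM (n = 10) in Selfox, with ranges of 995 to 1375, 813 to 1242 and 844 to 1278 CPM. Of the 19 class I genes tested, none was higher and 3 were lower in LPS with Control, 1 was higher and 3 lower in Selfox with Control, and 2 were higher and none lower in Selfox with LPS. Against Control, 15.8% of the 19 were lower in each model, where 6.99% of all genes were lower in LPS and 14.9% in Selfox; 5.26% were higher in Selfox, where 14.2% of all genes were. In Selfox with LPS 10.5% were higher, against 6.86% of all genes. Without the 5 libraries with Dbp above Arntl, 4 class I genes were called lower in Selfox than in LPS: RT1-CE1 and RT1-CE10, named after their values were seen, RT1-CE4 (-0.51, edgeR adjusted p = 0.0418) and RT1-CE5 (-0.52, adjusted p = 0.0214). RT1-CE5 was also called there with limma voom (-0.42, adjusted p = 0.0285), without LPS 4 (-0.41, adjusted p = 0.0329) and without LPS 6 (-0.41, adjusted p = 0.0417). Leaving out the 5 libraries kept LPS 1, 2 and 3, which had high RT1-N2, and of the other LPS libraries only LPS 4. RT1-CE5 was at 105 CPM or more in LPS 1, 2 and 3, and at 65.8 and 68.9 CPM in LPS 4 and LPS 6. The part of the RT1-N2 split in these calls was not tested. The median log2 fold changes of the 19 class I genes tested were -0.059, -0.18 and -0.036. RT1-A1 and RT1-A2, the classical class I heavy chains, passed in no comparison, with log2 fold changes between -0.20 and 0.06. B2m, the light chain, was at 1391, 1539 and 1929.9 CPM in Control, at 1487, 1642 and 1850.4 CPM in LPS and at 1267, 1556 and 1944 CPM in Selfox. Its log2 fold changes were 0.08 ± 0.10, -0.01 ± 0.09 and -0.10 ± 0.08 (edgeR adjusted p = 0.603, 0.930 and 0.491), with 95% intervals of -0.10 to 0.27, -0.19 to 0.16 and -0.26 to 0.07.

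Nlrc5, the class I transactivator, was lower in both models than in Control. It was at 12.9, 16.7 and 20.9 CPM in Control, at 9.87, 12.2 and 14.02 CPM in LPS and at 7.59, 11.6 and 19.9 CPM in Selfox. Below every Control library lay 6 of 7 LPS and 6 of 10 Selfox libraries. The log2 fold changes were -0.50 ± 0.17 (edgeR adjusted p = 0.0484) and -0.43 ± 0.15 (adjusted p = 0.0395), close to the threshold, and Selfox with LPS gave 0.07 ± 0.15 (adjusted p = 0.817). The call in LPS with Control was lost in 10 of 13 leave-one-out fits, all but those without Control 40, Control 55 or LPS 7 (adjusted p up to 0.121, without Control 52). The call in Selfox with Control was lost in 10 of 16, without any 1 of Control 41, 46, 49 and 52 and Selfox 1, 2, 3, 7, 9 and 10 (adjusted p up to 0.125, without Control 52).

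Of the 6 members that supply class I peptides, only Psmb9, an interferon-induced proteasome subunit, passed in any comparison. Psmb9 was at 14.5, 16.2 and 19.1 CPM in Control, at 15.8, 22.5 and 25.4 CPM in LPS and at 14.5, 19.5 and 25.3 CPM in Selfox, and 6 of 7 LPS libraries lay above every Control library. It was higher in LPS than in Control (0.44 ± 0.14, edgeR adjusted p = 0.0304) and missed the threshold in Selfox with Control (0.29 ± 0.13, adjusted p = 0.0908). The call in LPS was lost without any 1 of Control 41, Control 49, LPS 1, LPS 2 or LPS 5 (adjusted p 0.0586 to 0.0803), and without Selfox 1 Psmb9 passed in Selfox with Control (0.33, adjusted p = 0.0434). Psmb8 and Psmb10, the companion subunits, passed in no comparison, with log2 fold changes from -0.03 to 0.19. Tap1, one chain of the peptide pump, was at 26.5, 30.0 and 34.4 CPM in Control, at 18.9, 21.8 and 38.6 CPM in LPS and at 22.8, 28.7 and 52.7 CPM in Selfox. LPS 5 was the one LPS library above every Control library for Tap1, and 5 of the other 6 lay below every Control library. Tap1 and Tapbp gave -0.29 ± 0.19 (edgeR adjusted p = 0.323) and -0.26 ± 0.13 (adjusted p = 0.200) in LPS with Control. Without LPS 5, Tapbp was called lower in LPS with Control (-0.38, adjusted p = 0.0399), and both were called higher in Selfox with LPS (Tap1 0.54, adjusted p = 0.0282; Tapbp 0.37, adjusted p = 0.0236). Tap2, the partner chain of Tap1, had 206 counts in total, 2 to 19 per library, and no difference was detectable on so few counts. Tap1 had 43530 counts in the same libraries, and the reason for the low counts of Tap2 was not tested.

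**Figure D5:**
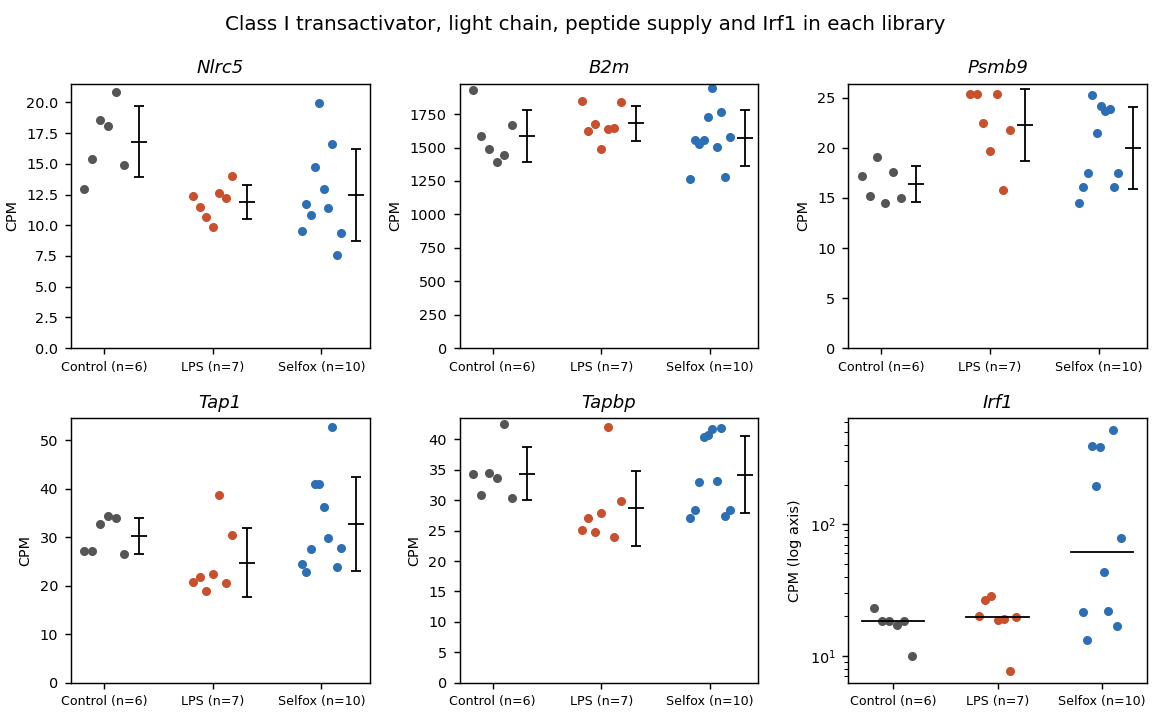
CPM of Nlrc5, B2m, Psmb9, Tap1 and Tapbp, 1 point per library with the mean and SD of each group beside the points, and of Irf1 on a log axis with a line at each group's median. Nlrc5 is at most 14.02 CPM in LPS and reaches 20.9 CPM in Control, LPS 5 lies above the other LPS libraries in Tap1 and Tapbp, and Irf1 spans 13.3 to 515 CPM within Selfox.

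The remaining class I calls were in genes of the RT1-T, RT1-M and RT1-CE groups, non-classical class I genes. RT1-T24-4 was at 37.7, 40.5 and 44.7 CPM in Control, at 27.4, 32.1 and 38.9 CPM in LPS and at 31.9, 38.6 and 42.5 CPM in Selfox. It was lower in LPS than in Control (-0.32 ± 0.08, edgeR adjusted p = 0.00706), kept that call with each library left out in turn, and was higher in Selfox than in LPS (0.22 ± 0.07, adjusted p = 0.0324). The latter call was lost without any 1 of LPS 2, 3, 4 or 6 or Selfox 5 or 6 (adjusted p 0.0530 to 0.0805). RT1-T24-3 was at 6.26, 7.35 and 7.86 CPM in Control, at 2.20, 4.24 and 5.08 CPM in LPS and at 2.79, 4.45 and 10.1 CPM in Selfox. Every LPS library was below every Control library (-0.92 ± 0.25, edgeR adjusted p = 0.0147). In Selfox 9 of 10 libraries were below every Control library and Selfox 6 was above all of them. The difference missed the threshold with all libraries (-0.58 ± 0.22, adjusted p = 0.0557) and passed it without Selfox 6 (-0.76, adjusted p = 0.00338). With all libraries it passed under DESeq2 (-0.57, adjusted p = 0.0395), limma voom (-0.68, adjusted p = 0.0157), a minimum count of 50 (-0.58, adjusted p = 0.0495) and a fit of the 2 groups alone (-0.58, adjusted p = 0.0475).

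RT1-M2 was lower in both models. It was at 3.92, 4.91 and 5.77 CPM in Control, at 1.91, 3.52 and 3.75 CPM in LPS and at 2.03, 3.29 and 4.83 CPM in Selfox, so that all 7 LPS and 7 of 10 Selfox libraries lay below every Control library. The log2 fold changes were -0.58 ± 0.18 (edgeR adjusted p = 0.0321) in LPS and -0.54 ± 0.16 (adjusted p = 0.0151) in Selfox. The former call was lost without any 1 of Control 40, 49 or 52 or LPS 4 or 5 (adjusted p 0.0555 to 0.0807). RT1-M6-2 was the only member called higher in Selfox than in both other groups. It was at 0.503, 0.861 and 1.03 CPM in Control, at 0.694, 0.900 and 1.20 CPM in LPS and at 1.09, 1.30 and 2.85 CPM in Selfox. All 10 Selfox libraries were above every Control library (0.89 ± 0.21, edgeR adjusted p = 0.00259) and 8 of 10 above every LPS library (0.71 ± 0.19, adjusted p = 0.0120), and both calls were kept with each library left out in turn.

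RT1-CE4 and RT1-CE5 were called lower in Selfox than in Control (-0.43 ± 0.16, edgeR adjusted p = 0.0394, and -0.43 ± 0.14, adjusted p = 0.0213). RT1-CE4 was at 78.4, 127 and 144 CPM in Control and at 70.2, 84.6 and 101 CPM in Selfox, and only 1 of 10 Selfox libraries was below every Control library; for RT1-CE5, 3 of 10 were. The Control libraries with high RT1-CE4 were 40, 41, 49 and 52, at 122 CPM or more, the 4 that also had high RT1-N2. With a term for the RT1-N2 level the log2 fold changes were -0.21 (adjusted p = 0.168) and -0.24 (adjusted p = 0.0692), so neither passed. The call of RT1-CE5 was lost without Control 40, 41 or 52 (adjusted p 0.0585 to 0.0682), and that of RT1-CE4 in 11 of 16 leave-one-out fits, among them those without Control 40, 41, 49 or 52 (adjusted p 0.0724 to 0.110).

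Of the 16 genes listed as transcription factors of these promoters, 2 rose and 2 fell in Selfox with Control, where 14.2% of all genes rose and 14.9% fell. In LPS with Control none rose; Irf9, an interferon regulatory factor (-0.81 ± 0.15, edgeR adjusted p = 0.00104), and Ezh2, a histone methyltransferase (-0.37 ± 0.11, adjusted p = 0.0221), were lower. Irf1, the interferon-induced factor that binds many class I and processing gene promoters, was at 9.96, 18.3 and 23.3 CPM in Control, at 7.70, 19.6 and 28.2 CPM in LPS and at 13.3, 61.0 and 515 CPM in Selfox, and rose by 3.26 ± 0.79 in Selfox with Control (edgeR adjusted p = 0.00402). The rise was uneven: Selfox 3, 4, 5 and 8 had 196 to 515 CPM, while Selfox 1, 2, 7 and 9 had 13.3 to 21.8 CPM, within the Control range. Tap1 was at 27.6, 40.99, 41.02 and 52.7 CPM in Selfox 3, 4, 5 and 8, where the median of the group was 28.7 CPM, and RT1-Ba was at 47.5, 51.2, 43.8 and 47.4 CPM, where it was 42.5 CPM. Rfx5, a subunit of the RFX complex that binds the X1 box, rose by 0.55 ± 0.17 in Selfox with Control (adjusted p = 0.0163), opposite in sign to the class II chains.

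The interferon gamma axis list of 16 genes had 5 higher and 1 lower in Selfox with Control, and 9 higher and 1 lower in Selfox with LPS, with median log2 fold changes of 0.52 and 0.81. Among all genes, 14.2% were higher and 14.9% lower in Selfox with Control, and 6.86% higher and 7.64% lower in Selfox with LPS. The 5 that rose in Selfox with Control were Irf1, Gbp5 and the chemokine genes Cxcl9, Cxcl10 and Cxcl11. Cxcl9 ranged from 12.4 to 599 CPM in Selfox, with a median of 36.7 CPM, and from 15.8 to 30.1 CPM in Control (3.01 ± 0.84, edgeR adjusted p = 0.0106). Ifngr1, a chain of the interferon gamma receptor, was the gene that fell (-0.43 ± 0.07, adjusted p = 0.000202). In LPS with Control Irgm, an interferon-induced GTPase, was lower (-1.19 ± 0.23, edgeR adjusted p = 0.00183). Jak1, of the same list, was called higher there, so the calls went in both directions. Among all genes, 7.71% were higher and 6.99% lower in LPS with Control.

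The co-stimulation list held genes whose products T cells read beside the MHC molecule, among them that of the inhibitory ligand PD-L1. Most of those tested rose in Selfox, opposite in sign to the class II chains, while Cd86 fell as the chains did. Of 5 tested, 4 rose and 1 fell in Selfox with Control and none passed in LPS with Control. For these and the lists below, 14.2% of all genes rose and 14.9% fell in Selfox with Control, and 6.99% fell in LPS with Control. Cd80 was at 0.323 to 0.774 CPM in Control and at 0.782 to 6.16 CPM in Selfox, with no overlap (2.05 ± 0.43, edgeR adjusted p = 0.00109). Cd40 rose by 1.25 ± 0.35 and Cd274, the gene of PD-L1, by 0.78 ± 0.22 (edgeR adjusted p = 0.0101 and 0.0107), and Cd86 had a log2 fold change of -0.57 ± 0.19 (adjusted p = 0.0290). Of 6 class I-like genes outside the RT1 names, Fcgrt, which encodes the neonatal Fc receptor chain that pairs with the light chain, was lower in LPS (-0.27 ± 0.07, edgeR adjusted p = 0.00822) and in Selfox (-0.45 ± 0.06, adjusted p = 1.65e-05) than in Control. Hfe, another partner of the light chain and a regulator of iron uptake, was higher in Selfox than in Control (0.43 ± 0.09, edgeR adjusted p = 0.000675). Of 22 further genes of class I peptide supply and loading, 2 fell in LPS with Control (Hspa5 and Psme3), and 3 rose and 3 fell in Selfox with Control, with log2 fold changes of at most 0.39 ± 0.10 (Sec61b) in size.

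The other cell type lists moved in both directions. For scale, 14.2% of all genes rose and 14.9% fell in Selfox with Control, and 7.71% rose in LPS with Control. All 4 neutrophil markers rose in Selfox with Control, with summed levels of 4.55 to 113 CPM in Selfox, 3.81 to 11.5 CPM in Control and 3.58 to 10.4 CPM in LPS. Of 7 T and NK cell markers 3 fell in Selfox with Control and 1 rose in LPS with Control, with summed levels of 2.66 to 4.63, 4.33 to 5.51 and 4.22 to 7.45 CPM in Selfox, Control and LPS. Of 6 sinusoidal endothelial markers 1 rose in Selfox with Control and none passed in LPS with Control. Of 6 hepatocyte markers, which checked the labelled tissue, 3 rose and 2 fell in Selfox with Control and 1, Cps1, rose in LPS with Control. Their summed levels were 146225 to 222854 CPM in Control, 110326 to 184826 CPM in LPS and 126425 to 156272 CPM in Selfox, and none was at 0 in every library of a group. The part of these cells in the levels given above was not tested.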

How the data were processed

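Libraries of rat liver RNA were made with a stranded mRNA kit, per the labels' protocols. The deposited table holds whole-number read counts per gene, and the authors used FastQC, Trim Galore, STAR 2.7.9a and featureCounts of Subread 2.0.3, per the submitters' processing notes. Near-identical RT1 copies and overlapping genes are uncertain, because build, annotation and strand setting were not given in the sources used here. Even numbers made up 66.1% to 74.9% of counts from 1 to 9, a measured feature of the table. Library pairs of 1 group differed by at least 7.17 times the counting noise, so none was treated as a library deposited again; this does not show that they came from different rats.

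Genes passing filterByExpr (minimum count 10) were scaled by TMM factors, and the 3 groups were fitted together with edgeR 4.0.16 (robust quasi-likelihood, R 4.3.3, biological coefficient of variation 0.235), with Benjamini-Hochberg adjustment over 15079 genes and a threshold of 0.05. Each standard error is the absolute log2 fold change over the root of its F statistic. CPM used TMM-scaled library sizes; log2 CPM added a prior count of 2. The fit was tested on simulated data. Depending on the comparison, it recovered 39 to 43 of 67 genes changed 1.5-fold and 60 to 64 of 67 changed 2-fold. Missing the threshold therefore does not show that a member was unchanged. Alternatives used RLE factors, other filters, DESeq2 1.42.0, limma 3.58.1 voom, 2 groups alone, thinned counts, libraries left out, a replicate block and, chosen after seeing the data, a term for libraries with at least 20 CPM of RT1-N2.

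The members and gene lists were chosen with earlier results of these data known. Named with values were the 10 control and processing genes, the class II genes and, per comparison, up to 8 other RT1 members past the threshold with the lowest adjusted p. Promoter sequences are RefSeq's (GRCr8). Same-numbered LPS and Selfox libraries did not pair. Protein sequences were not used here. 1 gene of the pathway lists is not reported here.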

Additional observations from a re-analysis of the deposited data

Results flagged for a closer look

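In each group the highest and lowest library of the named members was compared with its nearest neighbour by Dixon's ratio on log2 CPM. Of 72 gene and group combinations 4 stood out, and chance gives about 1 in 20. RT1-Ba was 4.33 log2 CPM in Selfox 6, where the other Selfox libraries lay at 5.01 to 5.68. RT1-Da was 4.91 in the same library against 5.47 to 6.09 in the others, so both alpha chains were far below their group in Selfox 6. Tapbp was 5.39 in LPS 5, where the other LPS libraries lay at 4.59 to 4.90. RT1-M2 was 0.96 in LPS 5 against 1.52 to 1.92 in the others.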

How the results depend on the processing

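Members called numbered 7 for LPS and 8 for Selfox against Control, and 8 for Selfox with LPS; they were recounted under each alternative, and no called log2 fold change of a named member changed sign. In LPS with Control the count was 4 without the 5 libraries with Dbp above Arntl, which lost RT1-Ba, RT1-Da, RT1-M2 (-0.49, adjusted p = 0.119), RT1-T24-3 (-0.77, adjusted p = 0.10) and Nlrc5 and gained Tap1 (-0.57, adjusted p = 0.0253) and Tapbp (-0.43, adjusted p = 0.0395), on fewer samples. Leaving out 1 library gave 3 to 6 (3 without LPS 4; 4 without any 1 of Control 40, 41, 46, 49 or 52). In Selfox with Control it was 5 with the RT1-N2 term, which lost RT1-CE4, RT1-CE5 and Nlrc5, and 3 to 9 with 1 library left out (5 without Control 41 or 49, 3 without Control 52). In Selfox with LPS it was 7 to 12 over all alternatives, and 7 to 10 with 1 library left out. The 12 came without the Dbp libraries, gaining RT1-CE1, RT1-CE10, RT1-CE4, RT1-CE5 and Tap1 and losing RT1-Bb. That setting kept LPS 1, 2 and 3, with high RT1-N2, and of the other LPS libraries only LPS 4. Members higher or lower, counted apart, were 1 higher in LPS with Control without the Dbp libraries, 2 higher in Selfox with Control at equal depth, and 4 lower there with the RT1-N2 term; with 1 library left out they ranged from 1 to 3 higher and 2 to 4 lower for LPS against Control, 1 to 3 and 2 to 8 for Selfox against Control, and 1 to 4 and 5 to 7 for Selfox with LPS. RLE factors and DESeq2 shifted the median over all genes by at most 0.0055 in log2. The labels give LPS and Selfox libraries shared numbers 1 to 7, but same-numbered deviations correlated at -0.059 to 0.16, above 0.1 in 1 of 7 pairs. A replicate block on these 14 libraries called 7 members, losing RT1-Db2 (adjusted p = 0.0815); the same libraries without it called 7, losing RT1-T24-4. The counts over all genes were 1259 with the block and 1617 without; 1 of 7 libraries correlated best with its own number. Low counts limit RT1-Db2, RT1-Ha and Tap2, at 2 to 92, 0 to 16 and 2 to 19 per library.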
